A study of Mus musculus with 4 samples.

Results

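The genes described here encode 10 ligands of immune checkpoint receptors, and their transcripts were measured in single cells from the ascites of mice carrying ovarian tumours. The members were Cd274 (PD-L1), Pdcd1lg2 (PD-L2), Cd80, Cd86, Nectin2, Pvr, Lgals9 (galectin-9), Cd276 (B7-H3), Tnfrsf14 (HVEM) and Vsir (VISTA). They were fixed by symbol, were all found in the feature lists of the 4 libraries, and are 10 of 29835 genes listed. All mice were C57BL/6 and received ID8 cells, an ovarian surface epithelial line from which Trp53 had been removed by CRISPR (ID8-Trp53-/-), so control and treated animals shared the knockout. Treatment began 7 days after engraftment, was given 2 times a week and ended at roughly 3 mL of ascites. Control mice received DMSO and an isotype IgG. The BTYNB group received BTYNB, a small molecule inhibitor of the RNA-binding protein IGF2BP1, with the IgG. The anti-PD-1 group received DMSO with an antibody to PD-1, and the combination group received BTYNB with that antibody. The labels give 50 mg/kg for BTYNB and 100 ng per dose for the antibody, whereas the study's methods state other amounts, and which of them was given could not be settled here. Each group was 1 library made from pooled animals, all tumours came from 1 cell line, and dead cells and erythrocytes had been removed before cryopreserved cells were captured. The 4 libraries therefore have no replicate. No difference between treatments was tested, and every interval given is a 95% interval for counting error alone, from exact Poisson limits for a level, exact binomial limits for a share and conditional binomial limits for a ratio.

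T cells carry inhibitory and activating receptors that read ligands on the cells they touch. PD-L1 and PD-L2 engage PD-1 and restrain the T cell, and CD80 and CD86 are shared by the activating receptor CD28 and the inhibitory receptor CTLA-4. Nectin-2 and PVR are shared by the activating receptor DNAM-1 (CD226) and the inhibitory receptor TIGIT. Galectin-9 binds TIM-3 among other glycoproteins, HVEM binds BTLA and CD160, VISTA is an inhibitory molecule of myeloid and T cells, and B7-H3 is a B7 family protein whose receptor is debated. In ascites such ligands can be carried by tumour cells, macrophages, dendritic cells and other leukocytes, and interferon-gamma from T and NK cells is a classic inducer of PD-L1.

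As deposited, the libraries held 7858 cells for the control, 19247 for BTYNB, 12163 for anti-PD-1 and 7074 for the combination, with between 78603888 and 114600397 unique molecular identifiers (UMIs) in each, and 45178 of 46342 cells passed the limits on genes and mitochondrial transcripts. Tumour cells were those with at least 5 UMIs of the keratins Krt7, Krt8, Krt18 and Krt19 plus Wt1 and none of the leukocyte gene Ptprc, and numbered 7114, 3606, 10923 and 4369 in the control, BTYNB, anti-PD-1 and combination libraries, the order used for all values below. Myeloid cells had at least 3 UMIs of Lyz2 plus Csf1r and at most 2 of the 4 keratins, and numbered 292, 3134, 384 and 1258. Levels are UMIs of a gene per 1000000 UMIs of the same cells (CPM), so they are not corrected for transcript length and are compared for 1 gene across cells, not between genes. The smallest kept BTYNB cell had 869 UMIs against 3534 to 5115 in the other libraries, so the BTYNB library holds shallow cells that the others lack, and 43.8% of its cells passed no gate against 5.29% to 17.0% elsewhere. The 10 tumour markers summed to 3860 to 4396 CPM in the tumour cells and to 138 to 502 CPM in the myeloid cells, and the 10 myeloid markers to 39.3 to 115 CPM and at least 11640 CPM, respectively, with every marker of the gate's own list detected. These lists include the genes that set the gates, so this contrast was in part fixed by the gating. Msln, Upk3b, Upk1b and Muc16, which set no gate, summed to 808 to 1057 CPM in tumour and 27.9 to 120 CPM in myeloid cells. Any 2 libraries shared at most 4 cell indices, and no such pair had the same counts.

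Cd274 encodes PD-L1, the ligand of PD-1. In tumour cells its level was 8.495 CPM (7.85 to 9.18) in the control library, 13.7 CPM (12.7 to 14.6) with BTYNB, 17.7 CPM (16.8 to 18.7) with anti-PD-1 and 20.5 CPM (19.3 to 21.7) with the combination, from 637, 790, 1463 and 1143 UMIs. The 4 intervals did not overlap, so the libraries stood in that order beyond counting error. The log2 ratio, computed here and below with 1 CPM added to both levels and given with an interval for the ratio without that addition, relative to control was 0.63 (0.53 to 0.84) with BTYNB alone and 0.98 (0.93 to 1.20) with the antibody alone, 2 contrasts that share the control. Adding the antibody to BTYNB gave 0.55 (0.45 to 0.72), and adding BTYNB to the antibody gave 0.20 (0.09 to 0.32). The ratio was thus smallest where both libraries had received the antibody.

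RNA from lysed cells reaches every capture, and free leukocyte RNA in the tumour cells differed between the libraries. From Lyz2, Tyrobp, Fcer1g and Laptm5, myeloid RNA was estimated at 0.217%, 0.371%, 0.420% and 0.690% of the UMIs of tumour cells. That amount would carry 0.213, 0.486, 0.704 and 0.771 CPM of Cd274, which is a small part of each measured level. Thinned to 2000 UMIs per cell, 1.43% (1.17 to 1.74), 2.66% (2.14 to 3.26), 3.43% (3.10 to 3.79) and 3.64% (3.10 to 4.24) of tumour cells held a Cd274 UMI, against 7.45%, 14.1%, 11.0% and 17.1% without thinning at median depths of 9783, 15221, 7160 and 11503 UMIs. Thinning left out 256 BTYNB tumour cells with fewer than 2000 UMIs. The thinned shares had the order of the CPM, but the intervals of the BTYNB, anti-PD-1 and combination libraries overlapped one another, and the control alone stood apart from the rest beyond counting error.

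A subset of anti-PD-1 tumour cells carried Cd24a, a surface glycoprotein gene, at 3 or more UMIs. Leaving these cells out kept 6816, 3458, 8899 and 4220 tumour cells, so most of those lost were from the anti-PD-1 library. Cd274 then stood at 8.39, 13.5, 20.2 and 20.6 CPM, and combination against anti-PD-1 had a log2 ratio of 0.02 (-0.09 to 0.14). The antibody libraries with and without BTYNB therefore did not differ in Cd274 beyond counting error outside the Cd24a-positive cells.

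The promoter of Cd274 is printed because Cd274 and Lgals9 were the members that followed interferon-inducible genes from cell to cell, as described next. The sequences come from the RefSeq annotation of GRCm38.p6, which matched 8 of 10 members (Cd86 and Pvr were not matched), and hold the 250 bases before the start of the gene, 5′ to 3′ on the strand of the gene. Capitals mark a match to GAAANNGAA, the core of an interferon regulatory factor motif, read here on the other strand as TTCNNTTTC.
Cd274, chr19:29367188-29367437, plus strand: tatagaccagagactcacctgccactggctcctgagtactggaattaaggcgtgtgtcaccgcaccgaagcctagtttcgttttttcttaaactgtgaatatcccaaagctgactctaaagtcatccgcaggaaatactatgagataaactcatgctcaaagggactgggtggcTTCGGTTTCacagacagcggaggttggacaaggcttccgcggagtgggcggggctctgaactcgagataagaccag
Lgals9, chr11:78984925-78985174, minus strand: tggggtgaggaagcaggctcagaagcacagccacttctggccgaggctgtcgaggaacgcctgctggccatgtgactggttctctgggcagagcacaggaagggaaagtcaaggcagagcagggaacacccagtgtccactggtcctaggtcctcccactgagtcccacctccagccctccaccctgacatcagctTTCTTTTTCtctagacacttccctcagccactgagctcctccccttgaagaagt
The match began 76 bases before the start of Cd274 and 54 bases before that of Lgals9, and Tnfrsf14 held a match 63 bases before its start. No match lay in the windows of the other 5 members found. The second motif searched, the gamma-activated sequence TTCNNNGAA, which reads the same on both strands, was in none of the 8 windows. Among 27025 genes, 8.18% held the first motif in this window and 8.13% the second, so a match is common. In that annotation Cd274 and Pdcd1lg2 are neighbours on chromosome 19 with 0 protein-coding genes between them, and Cd80 and Cd86 lie on chromosome 16 with 24 between them.

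Tumour cells were placed in 4 bins by the share of their UMIs from 23 interferon-gamma-inducible genes, a list without any of the 10 ligands, with edges at 1091, 1668 and 2486 CPM set over the libraries with equal weight. Cd274 was higher in each bin than in the bin before it, in all 4 libraries. From the lowest to the highest bin it went from 4.30 to 22.3 CPM in the control library, from 6.34 to 42.8 CPM with BTYNB, from 7.07 to 32.7 CPM with anti-PD-1 and from 7.66 to 36.9 CPM with the combination. The log2 ratios of the highest to the lowest bin were 2.14 (2.03 to 2.73), 2.58 (2.44 to 3.08), 2.06 (1.96 to 2.46) and 2.13 (1.84 to 2.73). Free myeloid RNA was estimated to carry at most 0.890 CPM of Cd274 in any bin.

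The libraries also differed in how many tumour cells fell in each bin. The highest bin held 14.8%, 16.1%, 36.6% and 32.4% of tumour cells, and the lowest 32.3%, 32.0%, 24.1% and 11.7%, so both antibody libraries had more cells in the highest bin. Median depths were 9173.5, 12271, 6692 and 11179 UMIs in the highest bin and 9478, 14134, 8034 and 10913 in the lowest. The 4 leukocyte genes summed to 50.7, 47.8, 87.9 and 99.7 CPM in the highest bin and 23.8, 20.4, 45.4 and 60.1 CPM in the lowest. The part of depth in the bin shares was not tested. Within bins, Cd274 was higher with BTYNB than in the control by log2 ratios of 0.47, 0.33, 0.47 and 0.91 from the lowest to the highest bin, and higher with anti-PD-1 than in the control by 0.61, 0.46, 0.63 and 0.53. All 8 of these intervals excluded 0. For the combination against BTYNB the ratios were 0.24, 0.24, 0.43 and -0.21, and the interval in the highest bin was -0.40 to -0.02, so the sign there was opposite to that over all tumour cells.

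**Figure D1:**
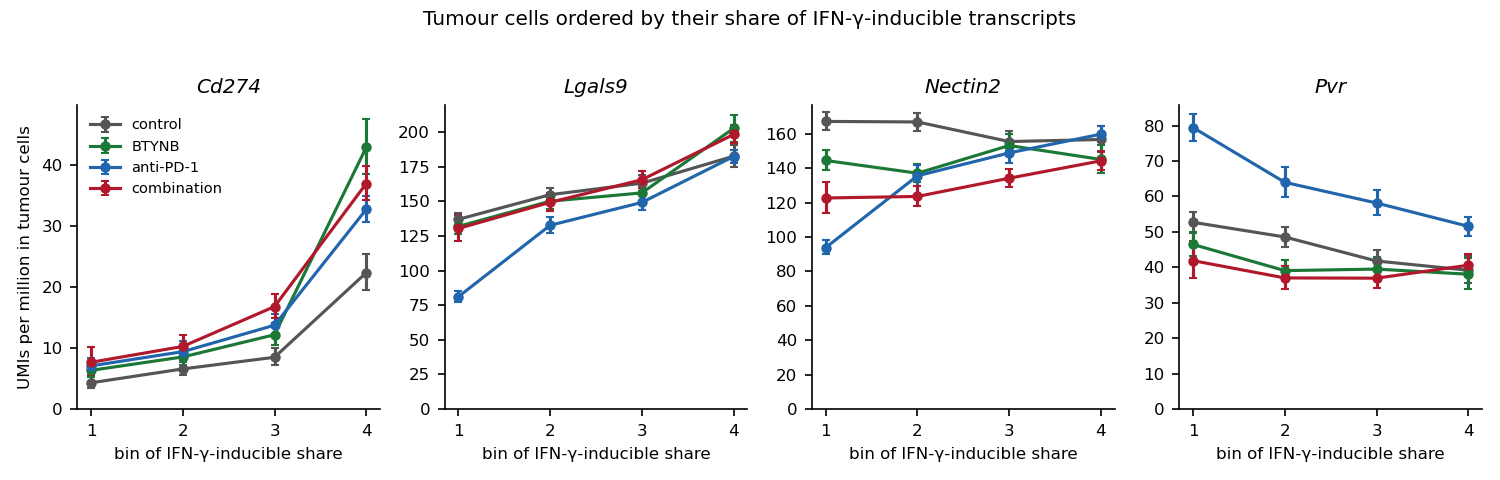
Level (CPM) of Cd274, Lgals9, Nectin2 and Pvr in tumour cells over 4 bins of interferon-gamma-inducible genes, 1 line per library, with 95% Poisson intervals. Cd274 and Lgals9 are higher from bin to bin in all 4 libraries, with Cd274 reaching 42.8 CPM in the highest BTYNB bin, whereas Pvr is lower in the highest bin than in the lowest in the control, BTYNB and anti-PD-1 libraries.

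Lgals9 encodes galectin-9, a secreted lectin. In tumour cells it stood at 155 CPM (152 to 158), 154 CPM (151 to 157), 140 CPM (137 to 142) and 168 CPM (165 to 172), so control and BTYNB did not differ beyond counting error, anti-PD-1 was the lowest and the combination the highest. The log2 ratios were small, at -0.01 (-0.05 to 0.03) with BTYNB alone and -0.15 (-0.19 to -0.11) with the antibody alone relative to control, and at 0.26 (0.23 to 0.30) and 0.13 for the combination against anti-PD-1 and against BTYNB. Over the interferon bins Lgals9 was higher in each than in the one before in every library, with log2 ratios of the highest to the lowest of 0.41, 0.62, 1.16 and 0.60. The widest span, from 81.2 to 183 CPM, was in the anti-PD-1 library, and the part of the Cd24a-positive cells in it was not tested. Without the Cd24a-positive cells Lgals9 stood at 159 CPM there and at 154, 153 and 167 CPM in the control, BTYNB and combination libraries.

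Nectin2 and Pvr encode adhesion proteins read by DNAM-1 and TIGIT. Nectin2 in tumour cells stood at 163 CPM (160 to 166) in the control library, 144 CPM (141 to 148) with BTYNB, 136 CPM (133 to 138) with anti-PD-1 and 133 CPM (130 to 137) with the combination. The control was the highest and the antibody libraries, whose intervals overlapped, the lowest, at log2 ratios to control of -0.17 (-0.21 to -0.13) with BTYNB alone and -0.26 (-0.30 to -0.23) with the antibody alone. Without the Cd24a-positive cells the order changed: Nectin2 stood at 165, 145, 151 (148 to 154) and 135 CPM (131 to 138), so that anti-PD-1 lay above BTYNB and apart from the combination. Pvr stood at 47.0 CPM (45.4 to 48.5), 41.2 CPM (39.5 to 42.8), 62.5 CPM (60.8 to 64.3) and 38.7 CPM (37.0 to 40.3), highest with anti-PD-1 alone and lowest in both BTYNB libraries, whose intervals overlapped. With the antibody alone its log2 ratio to control was 0.41 (0.35 to 0.48), and that of the combination to anti-PD-1 was -0.68 (-0.77 to -0.62), the one decrease past 1.5-fold among the members in tumour cells. Without the Cd24a-positive cells Pvr was 56.4 CPM with anti-PD-1 and 47.5, 41.0 and 38.7 CPM in the other libraries, and that decrease was -0.53 (-0.62 to -0.47), no longer past 1.5-fold. Over the interferon bins Pvr had log2 ratios of the highest to the lowest of -0.42, -0.28, -0.61 and -0.04, and Nectin2 of -0.09, 0.01, 0.76 (0.69 to 0.84) and 0.23 (0.12 to 0.35). Nectin2 was higher from bin to bin in the anti-PD-1 and combination libraries, as Cd274 was, but not in the control and BTYNB libraries. The bins were not taken without the Cd24a-positive cells, so the part of those cells in the anti-PD-1 values was not tested.

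Cd276, the gene of B7-H3, stood at 6.62 CPM (6.05 to 7.22), 8.16 CPM (7.44 to 8.93), 6.35 CPM (5.82 to 6.92) and 8.73 CPM (7.97 to 9.54) in tumour cells. Both BTYNB libraries were above both libraries without it, with log2 ratios of 0.27 (0.12 to 0.49) against control and 0.40 (0.28 to 0.64) for the combination against anti-PD-1, both inside 1.5-fold. The other members were sparse in tumour cells. Cd86 stood at 1.49, 2.35, 1.54 and 2.53 CPM, of which free myeloid RNA was estimated to carry 0.245, 0.879, 0.210 and 1.19 CPM, and Cd80 at 0.814, 1.23, 0.849 and 1.11 CPM beside an estimated 0.139, 0.365, 0.163 and 0.454 CPM. Vsir stood at 0.600, 0.950, 1.46 and 1.33 CPM against an estimated 0.525, 0.778, 1.15 and 1.43 CPM from myeloid RNA, and at 0.222, 0.357, 0.528 and 0.784 CPM in tumour cells with no UMI of the 4 leukocyte genes. The levels of Vsir in tumour cells were thus at or near the estimated background. Pdcd1lg2 had 8 to 18 UMIs and Tnfrsf14 28 to 38 UMIs in the tumour cells of a library, at most 0.323 and 0.553 CPM.

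A ratio was read where a gene had at least 100 UMIs in 1 of the 2 libraries, and called where it passed 1.5-fold. Of the members, Cd274 alone passed in BTYNB against control, 1 of 6, where 6.81% of all 12705 genes read passed. In anti-PD-1 against control Cd274 and Vsir passed, 2 of 7, against 8.84% of all genes. The log2 ratio of Vsir was 0.62, but Vsir was read through its 120 UMIs in the anti-PD-1 library against 45 in the control, its level was near that estimated from myeloid RNA, and its ratio was 0.29 after free RNA was subtracted. Pvr passed in combination against anti-PD-1, 1 of 7 against 9.82% of all genes. In combination against BTYNB, where 0.644% of all genes passed, 0 of 6 members did, and the log2 ratio of 0.55 for Cd274 lay above 99.5% of the genes read. These counts are too small to read against the shares of all genes.

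**Figure D2:**
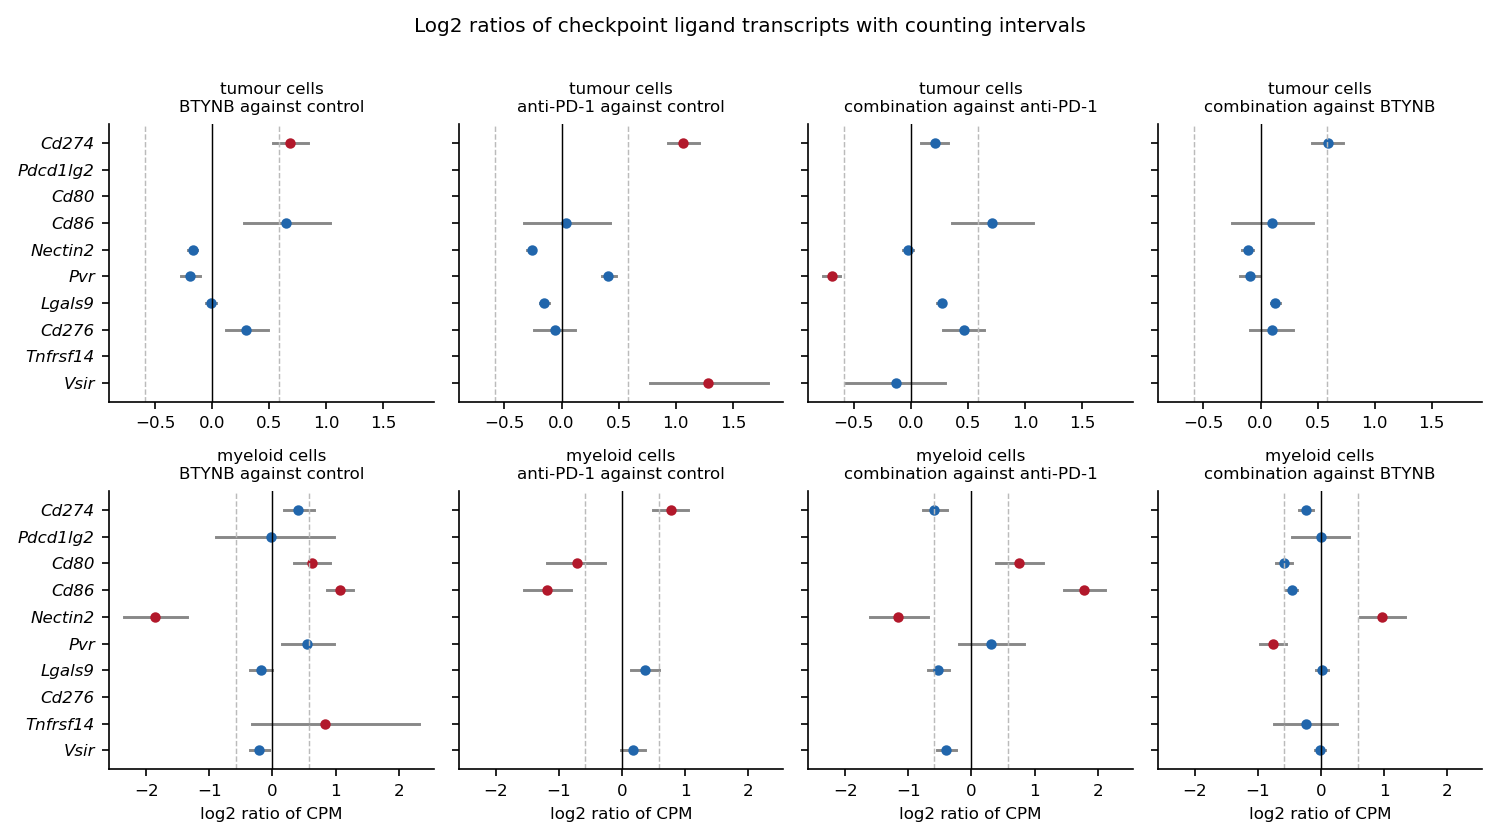
Log2 ratios without an added constant, with 95% counting intervals, of the members with at least 100 UMIs in 1 of the 2 libraries, for 4 contrasts in tumour and myeloid cells; dashed lines mark 1.5-fold and red marks ratios called past it with 1 CPM added. In tumour cells Cd274 is above 0 in each contrast and Pvr is past the line in combination against anti-PD-1, while in myeloid cells Cd86 lies above 0 with BTYNB alone and below 0 with the antibody alone, each relative to control.

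The genes around these ligands were read from fixed lists in the same tumour cells. Of all genes read, 6.81% passed 1.5-fold in BTYNB against control and 8.84% in anti-PD-1 against control. In the combination 9.82% passed against anti-PD-1 and 0.644% against BTYNB. Of the 23 interferon-gamma-inducible genes, 1 of 22 read was past 1.5-fold in BTYNB against control, 8 of 23 were higher in anti-PD-1 against control, and 1 and 3 of 23 were past it in the combination against anti-PD-1 and against BTYNB. Their median log2 ratios were 0.11, 0.47, 0.10 and 0.41 in these contrasts, beside medians of -0.00, -0.07, 0.05 and -0.01 over all genes read. With anti-PD-1 against control the largest ratios were those of the GTPase genes Igtp at 1.05, Gbp2 at 0.88 and Gbp5 at 0.83. Of the 5 genes of the interferon-gamma signal, 4 were read and 0 passed in any contrast. Of 3 genes tied to PD-L1 and its regulation, 0 passed: Cmtm6, whose protein keeps PD-L1 at the cell surface, had log2 ratios of 0.04, -0.02, -0.07 and -0.13, and Igf2bp1, whose protein BTYNB targets, had 0.09, 0.46, -0.08 and 0.29.

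Among the 12 receptors, few were read in tumour cells, 1 of 3, 2 of 4, 2 of 4 and 0 of 3 passing 1.5-fold in the 4 contrasts. Of all genes read, 6.81%, 8.84%, 9.82% and 0.644% passed, and the counts of receptors are too small to read against these shares. Pdcd1, the gene of PD-1, stood at 0.347 CPM in control and 8.60 CPM in anti-PD-1 tumour cells, and Tigit at 0.547 and 4.24 CPM. Without the Cd24a-positive cells Pdcd1 stood at 3.86 CPM and Tigit at 1.17 CPM in the anti-PD-1 library, and in cells without a UMI of the leukocyte genes at 8.64 and 4.25 CPM. Of 16 other ligands, 1 of 7, 4 of 9, 3 of 10 and 0 of 8 passed, counts that are also too small to read against the shares of all genes. In anti-PD-1 against control Tnfsf9, the ligand of 4-1BB, went from 4.45 to 16.9 CPM, Lgals3 (galectin-3) from 91.4 to 226 CPM and Ceacam1, whose protein can bind TIM-3, from 24.5 to 7.55 CPM.

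Cd86 and Cd80 encode the ligands of CD28 and CTLA-4, and antigen-presenting cells use them to start or restrain a T cell response. In myeloid cells Cd86 stood at 113 CPM (97.6 to 130) in the control library, 237 CPM (229 to 244) with BTYNB, 49.9 CPM (39.9 to 61.6) with anti-PD-1 and 172 CPM (164 to 180) with the combination. No interval overlapped another, and both BTYNB libraries were above both libraries without it. The log2 ratio to control was 1.06 (0.86 to 1.28) with BTYNB alone and -1.16 (-1.56 to -0.80) with the antibody alone, and the combination stood at 1.76 (1.47 to 2.11) against anti-PD-1 and at -0.46 (-0.55 to -0.38) against BTYNB. Thinned to 2000 UMIs, 17.8%, 31.0%, 9.64% and 24.96% of myeloid cells held a Cd86 UMI, against 36.6%, 51.0%, 18.0% and 53.6% unthinned. Thinning left out 379 BTYNB myeloid cells with fewer than 2000 UMIs. In tumour cells the thinned shares were 0.253%, 0.537%, 0.357% and 0.504%. The level of Cd86 there, at 1.49, 2.35, 1.54 and 2.53 CPM, was above that estimated from myeloid RNA. That estimate takes myeloid cells as the only source, and they held 46.2% of the Cd86 UMIs of the BTYNB library. RNA from other leukocytes was not estimated, so the rest is not shown to come from tumour cells. Under other settings the ratio in tumour cells ran from 0.14 to 1.24 in BTYNB against control. In combination against BTYNB it ran from -0.66 to 0.36.

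The myeloid cells were not the same mixture in each library, as cells rich in the complement genes C1qa, C1qb and C1qc made up 79.8%, 38.4%, 91.9% and 67.7% of them and Ly6c2-positive cells 2.40%, 15.6%, 0% and 2.94%. Other myeloid cells made up 17.8%, 46%, 8.07% and 29.3%. Within the C1q-rich cells alone Cd86 had log2 ratios to control of 0.92 (0.69 to 1.16) with BTYNB alone and -1.21 (-1.63 to -0.84) with the antibody alone, and of 1.62 (1.31 to 1.98) and -0.51 for the combination against anti-PD-1 and against BTYNB. The differences were therefore about as large within this subset. Cd80 stood at 64.0, 98.2, 38.9 and 65.8 CPM in all myeloid cells, in which BTYNB was highest, anti-PD-1 lowest, and the other two did not differ beyond counting error. Its log2 ratios were 0.61 (0.34 to 0.91), -0.71 (-1.18 to -0.27), 0.74 (0.39 to 1.14) and -0.57 (-0.71 to -0.45) in the order BTYNB and antibody alone over control, then combination over antibody and over BTYNB alone. Within the C1q-rich cells they were 0.77 (0.45 to 1.12), -0.66 (-1.18 to -0.17), 0.89 (0.51 to 1.32) and -0.54 (-0.71 to -0.38). The second of these rested on 59 and 82 UMIs, under the minimum of 100 used for a call.

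Cd274 in myeloid cells had another order than in tumour cells. It stood at 98.4 CPM (84.1 to 114) in the control library, 131 CPM (125 to 137) with BTYNB, 168 CPM (149 to 188) with anti-PD-1 and 112 CPM (105 to 119) with the combination. Anti-PD-1 alone was the highest, and the intervals of the combination and the control overlapped. The log2 ratios to control were 0.41 (0.19 to 0.65) with BTYNB alone and 0.76 (0.49 to 1.05) with the antibody alone, whereas the combination was lower than anti-PD-1 alone at -0.58 (-0.77 to -0.39) and lower than BTYNB alone at -0.23 (-0.34 to -0.12). Within the C1q-rich cells these ratios were 0.37 (0.12 to 0.64), 0.71 (0.42 to 1.02), -0.58 and -0.24. Limited to cells of at least 5115 UMIs, the smallest cell of the combination library, anti-PD-1 against control was 0.29 (-0.21 to 0.79) and combination against anti-PD-1 was -0.12 (-0.54 to 0.32), so neither differed beyond counting error among the deeper cells. That limit left 184 control, 67 anti-PD-1 and 1258 combination myeloid cells, so the part of depth and that of few cells cannot be told apart.

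**Figure D3:**
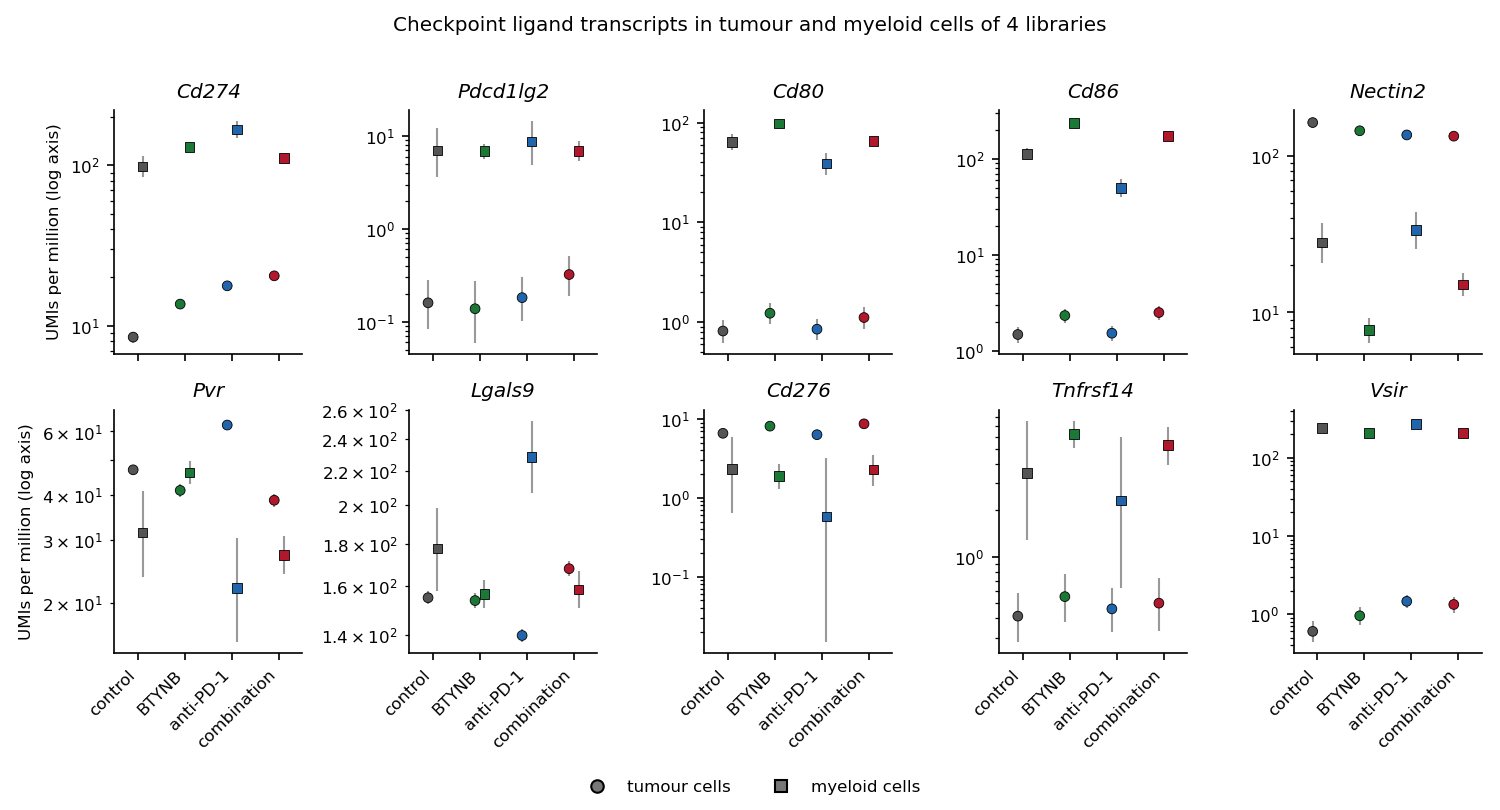
Level (CPM, log axis) of the 10 ligands in tumour cells (circles) and myeloid cells (squares) of the 4 libraries, with 95% Poisson intervals. In tumour cells Cd274 runs from 8.495 CPM in the control to 20.5 CPM in the combination, and in myeloid cells Cd86 runs from 49.9 CPM with anti-PD-1 to 237 CPM with BTYNB.

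Of the other ligands in myeloid cells, Lgals9 stood at 178, 157, 229 and 159 CPM, highest with anti-PD-1 alone. Vsir stood at 242, 209, 273 and 207 CPM. Its intervals with anti-PD-1 alone (248.6 to 298.5) and in the control (219.5 to 266.6) overlapped. Over 9 alternatives the ratio of these 2 libraries for Vsir ran from -0.15 to 0.27. Lgals9 had log2 ratios of 0.36 (0.15 to 0.59) for the antibody alone over control and -0.52 (-0.69 to -0.36) for the combination against anti-PD-1, and Vsir of 0.17 and -0.40. Within the C1q-rich cells the ratios of the combination to anti-PD-1 were nearer to 0, at -0.29 (-0.46 to -0.12) for Lgals9 and -0.20 (-0.35 to -0.04) for Vsir. Pvr stood at 31.4, 46.1, 22.1 and 27.3 CPM, highest with BTYNB, at 0.54 (0.15 to 0.98) against control and -0.74 (-0.97 to -0.55) for the combination against BTYNB. Within the C1q-rich cells Pvr had 0.28 (-0.20 to 0.80) and -0.50 (-0.81 to -0.23), so the first did not differ beyond counting error and the second was inside 1.5-fold. Nectin2 stood at 27.9, 7.70, 33.7 and 15.1 CPM, but tumour RNA, estimated from Msln, Upk3b, Upk1b and Muc16 at 8.67%, 2.64%, 14.9% and 6.22% of myeloid UMIs, would carry 14.1, 3.81, 20.2 and 8.29 CPM of it. The order of Nectin2 in myeloid cells was thus the order of that estimate, and its log2 ratios of -1.73, -1.11 and 0.89 in BTYNB against control and in the combination against anti-PD-1 and against BTYNB moved with it. Over 9 alternatives, including the subtraction of free RNA, these ratios kept their direction, within -2.23 to -1.14, -1.34 to -0.60 and 0.68 to 1.14. The part of tumour RNA in them was not tested. Pdcd1lg2 stood at 6.85 to 8.70 CPM with intervals that overlapped in the 4 libraries, Tnfrsf14 stood at 3.49, 6.25, 2.32 and 5.31 CPM and Cd276 at 0.580 to 2.33 CPM.

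In BTYNB against control 4 of 9 members read were past 1.5-fold in myeloid cells, where 26.1% of 9247 genes passed. These were Cd86, Cd80 and Tnfrsf14, which were higher, and Nectin2, which was lower, and Tnfrsf14 rested on 6 control UMIs with an interval of -0.33 to 2.32. In anti-PD-1 against control Cd274, Cd80 and Cd86 passed, 3 of 5, against 8.7% of all genes. In the combination against anti-PD-1 Cd86, Cd80 and Nectin2 passed, 3 of 7, against 17.6%, and against BTYNB Nectin2 and Pvr passed, 2 of 9, against 10.2%. Of the 23 interferon-gamma-inducible genes in myeloid cells, 9 were higher and 3 lower past 1.5-fold in BTYNB against control, 7 of 21 read were higher in anti-PD-1 against control, 1 was higher and 6 were lower in the combination against anti-PD-1, and 3 were higher in the combination against BTYNB.

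Mature dendritic cells, taken as cells with at least 1 UMI of Ccr7 and 2 of Fscn1, numbered 18, 365, 6 and 115, so a ratio was read for the combination against BTYNB alone. Mature dendritic cells that reach lymph nodes prime T cells through CD80 and CD86. Cd274 stood at 569 CPM (536 to 603) with BTYNB and 338 CPM (302 to 377) with the combination, Cd86 at 307 and 141 CPM, Cd80 at 252 and 129 CPM, and Pdcd1lg2 at 114 and 98.8 CPM. The control held 19 UMIs of Cd274 and anti-PD-1 7, too few to order them. The gate went partly against its label, since the 10 tumour markers summed to 778 CPM with BTYNB and 1561 CPM with the combination, and tumour RNA was estimated at 17.5% and 34.2%.

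As gated, Cd274, Cd80 and Cd86 were lower with the combination by log2 ratios of -0.75 (-0.93 to -0.57), -0.96 (-1.26 to -0.68) and -1.11 (-1.40 to -0.85), 3 of 5 members read, where 25.7% of 3306 genes passed 1.5-fold. A limit of 2 keratin UMIs left 350 and 81 cells and an estimated tumour RNA of 4.71% and 9.26%. In these, Cd274 was 670 and 517 CPM, Cd86 359 and 211 CPM, Cd80 295 and 174 CPM, and Pdcd1lg2 135 and 149 CPM. The log2 ratio of Cd274 was then -0.37 (-0.57 to -0.18), inside 1.5-fold, while those of Cd80 and Cd86 were both -0.76. Among cells of at least 5115 UMIs the ratio was -0.42 (-0.63 to -0.22) for Cd274, -0.40 (-0.74 to -0.07) for Cd80 and -0.27 (-0.60 to 0.06) for Cd86, so none of these members was past 1.5-fold and Cd86 did not differ beyond counting error. With stricter gates Cd274 was at -0.21 (-0.41 to -0.00).

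B cells, taken as cells with at least 3 UMIs of Cd79a plus Cd79b, numbered 31, 3475, 39 and 286, and went against their label in the control and anti-PD-1 libraries, where the tumour markers summed to 4467 and 4049 CPM and Ptprc stood at 26.2 and 18.6 CPM. With BTYNB and the combination the tumour markers summed to 2110 and 3120 CPM. Cells with at most 2 keratin UMIs numbered 3, 3204, 4 and 115, with an estimated tumour RNA of 7.59% for BTYNB and 10.2% for the combination. In these, Cd274 stood at 128 CPM (120 to 136) and 143 CPM (118 to 172), whose intervals overlapped, and Cd86 at 172 CPM (162 to 182) and 141 CPM (116 to 169). Cd80 was higher with the combination, at 27.0 CPM (23.4 to 31.0) and 65.3 CPM (48.7 to 85.6), as was Vsir, at 27.4 CPM (23.8 to 31.5) and 69.0 CPM (52.0 to 89.8). The 10 myeloid markers moved the same way in these cells, at 833 CPM with BTYNB and 5636 CPM with the combination, and their part in the values of Cd80 and Vsir was not tested.

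The leukocytes of the BTYNB library were numerous enough to compare a ligand across gates, which were not made exclusive. Its myeloid cells held 1885 CPM of neutrophil markers and 527 CPM of type 1 dendritic markers. Cd274 stood at 427 CPM (390 to 466) in 570 neutrophils with a median of 1401 UMIs, 131 CPM in myeloid cells, 125 CPM in 545 type 1 dendritic cells, 87.2 CPM in 2306 T cells, 53.9 CPM in 409 NK cells and 13.7 CPM in tumour cells, beside 670 CPM in the mature dendritic cells limited by keratins. Cd80 was likewise high in neutrophils at 316 CPM (284 to 350) and mature dendritic cells, and stood at 37.9 CPM in type 1 dendritic and 17.9 CPM in T cells. Cd86 stood at 254 CPM in type 1 dendritic, 89.7 CPM in neutrophils and 53.6 CPM in T cells. Vsir, by contrast, was 259 CPM in neutrophils and 209 CPM in myeloid cells but 52.3 CPM in type 1 dendritic and 26.1 CPM in the mature dendritic cells, and Lgals9 was 17.6 CPM in the latter against 119 to 159 CPM in NK cells, neutrophils and myeloid cells. In the combination library the 485 type 1 dendritic cells held 94.1 CPM of Cd274 and 217 CPM of Cd86, and the 88 T cells 86.8 and 97.9 CPM. T cells there also carried 5122 CPM of the myeloid markers against 901 CPM in the BTYNB library, and the part of these in the values was not tested.

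**Figure D4:**
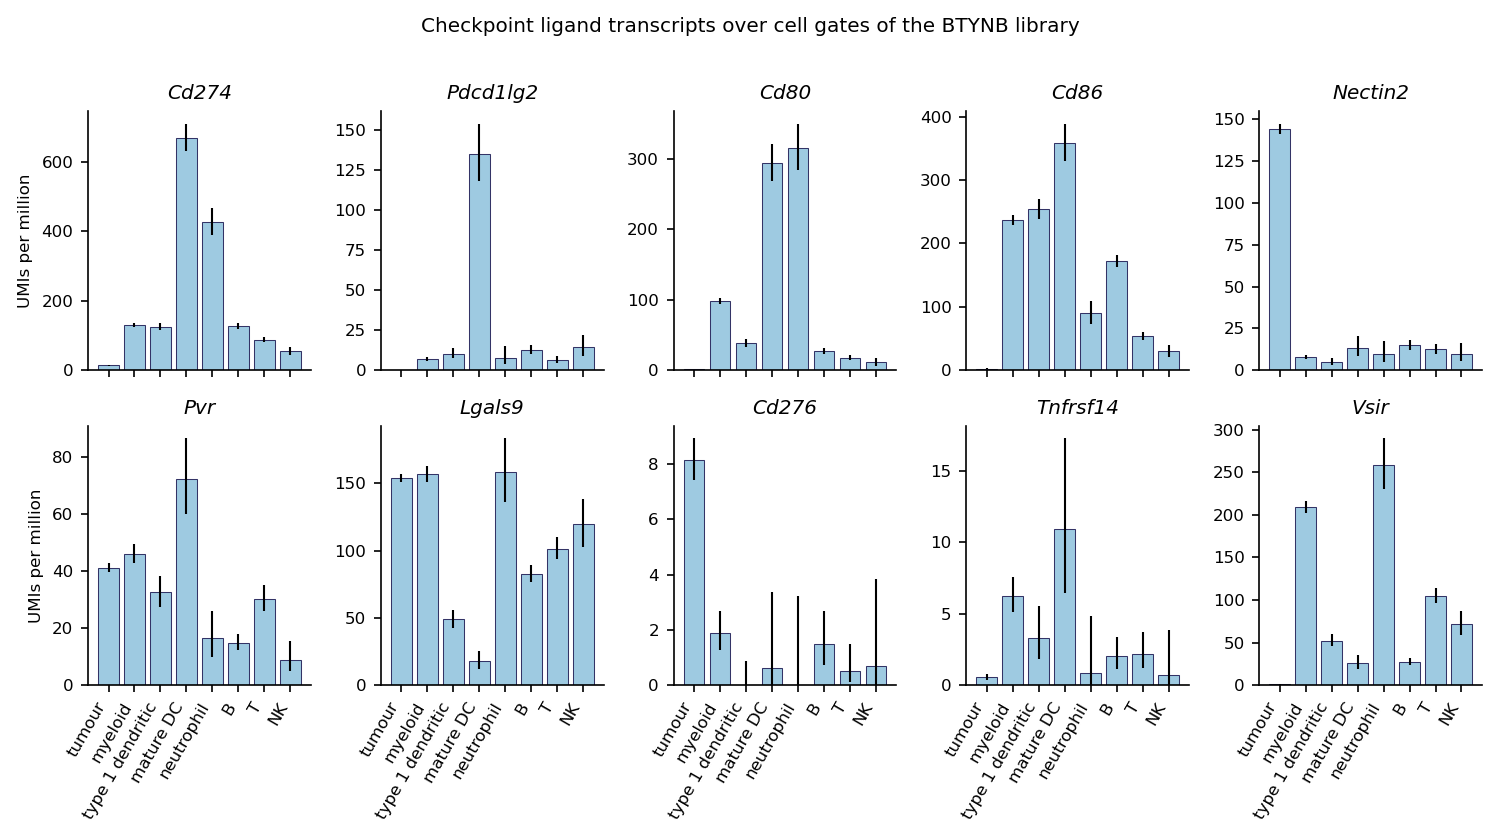
Level (CPM) of each ligand in 8 kinds of gated cells of the BTYNB library, as bars from 0 with 95% Poisson intervals; mature dendritic and B cells are limited to 2 keratin UMIs. Cd274 is highest in mature dendritic cells at 670 CPM, Vsir in neutrophils at 259 CPM, and Nectin2 in tumour cells at 144 CPM.

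Counted over whole libraries, the cells that held a ligand differed between treatments with the makeup of the ascites. Tumour cells held 93.3%, 51.6%, 93.1% and 71.2% of all UMIs. They held 71.1%, 10.5%, 78.5% and 34.9% of the 896, 7540, 1863 and 3272 Cd274 UMIs, whereas myeloid cells held 18.9%, 28.6%, 15.5% and 32.8%, and mature dendritic cells 14.9% with BTYNB and 9.93% with the combination. Most Cd274 transcripts of the control and anti-PD-1 libraries were therefore in tumour cells, and most of those in both BTYNB libraries were outside them. Nectin2 stayed mostly in tumour cells, at 95.5%, 80.4%, 94.4% and 86.3%, as did Cd276 at 95.2%, 73.2%, 95.1% and 83.1%. Pvr and Lgals9 were in tumour cells for at least 53.2% and 57.6% of their UMIs, the BTYNB library being lowest. Vsir was in myeloid cells at 81.4%, 65.9%, 71.2% and 81.5%, and Cd86 at 50.5%, 46.2%, 31.7% and 56.2%. Tumour cells held 29.2%, 1.61%, 46.9% and 4.80% of the Cd86 UMIs, in the anti-PD-1 library more than myeloid cells. The number of cells of each kind that were captured enters these shares, and their order need not be that of the levels above.

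**Figure D5:**
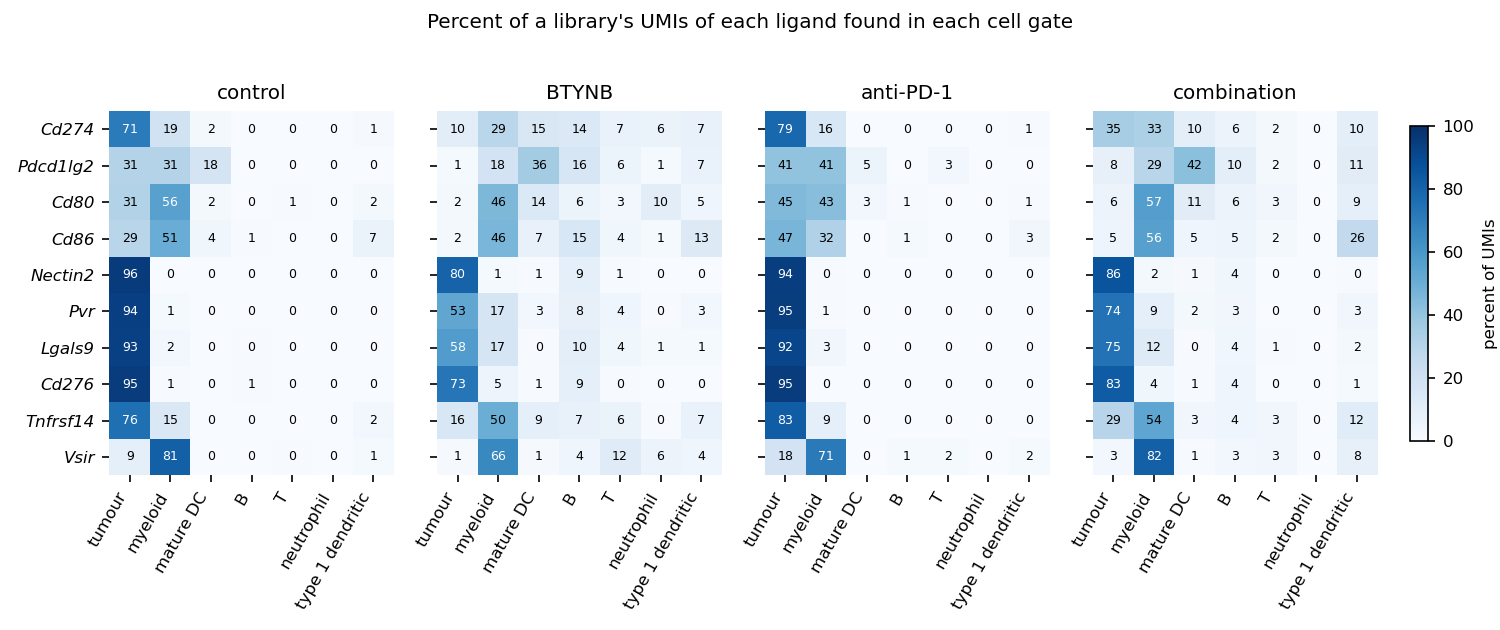
Percent of a library's UMIs of each ligand that lay in each kind of gated cell; a cell may pass more than 1 gate. For Cd274 the tumour share is 71.1% in the control and 78.5% with anti-PD-1 but 10.5% with BTYNB and 34.9% with the combination.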

How the data were processed

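Single cells from ascites were captured with BD Rhapsody and sequenced on a NextSeq 1000, 1 library per treatment from pooled animals. The counts deposited by the authors are whole UMIs per gene and cell, made with the BD Rhapsody pipeline against GRCm39 according to the submitters' processing notes and the study's methods. Cells with fewer than 200 genes or over 33% mitochondrial UMIs were left out. Cells were gated by UMIs of named markers rather than clustered, UMIs were summed per gate and library, and levels were expressed as CPM. Ratios were read for genes with at least 100 UMIs in 1 of the 2 libraries and gates with at least 50 cells in both, with a pseudocount of 1 CPM and a call at 1.5-fold. With 1 library per group no test was made. The 10 members, the gates and the gene lists were chosen with earlier results of these data known. All members are described, and other genes of a list are named by the largest ratio, up to 4 per contrast. Shares of cells with a UMI were taken after thinning cells to 2000 UMIs and leaving out shallower ones. With BTYNB 256 of 3606 tumour and 379 of 3134 myeloid cells were left out, and none in these gates elsewhere. The thinned BTYNB shares therefore leave out the shallowest cells, which the unthinned ones include. Free RNA in a gate was estimated from markers of tumour cells or leukocytes as a share of their level in those cells. Doublets were not removed for the values given, and removing the top 5% of cells by Scrublet score was an alternative, since Scrublet's own calls marked 0.0128% to 3.05% of cells. Ratios and intervals were run on simulated Poisson counts. These hold no variation between animals or captures, so the run checks the computation alone. Python 3.11.15 with numpy 2.4.6, scipy 1.17.1, pandas 2.3.3, scanpy 1.11.5 and matplotlib 3.10.9 was used.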

Additional observations from a re-analysis of the deposited data

Results flagged for a closer look

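Several ligands had log2 ratios of opposite sign in tumour and myeloid cells under the same contrast, or for 1 agent with and without the other. None of these differences was tested, since each group was 1 library. Cd274 in combination against anti-PD-1 had a ratio of 0.20 in tumour and -0.58 in myeloid cells, a difference of 0.78, and in combination against BTYNB 0.55 and -0.23, also a difference of 0.78. The first of these was 0.02 (-0.09 to 0.14) in tumour cells without the Cd24a-positive cells and -0.12 (-0.54 to 0.32) in myeloid cells of at least 5115 UMIs. In myeloid cells the ratio of Cd274 for BTYNB was -0.58 with the antibody and 0.41 without it, and that for the antibody was -0.23 with BTYNB and 0.76 without it, each a difference of -0.99. Nectin2 in combination against BTYNB had -0.11 in tumour and 0.89 in myeloid cells, a difference of -1.0, and tumour RNA in the myeloid cells was estimated at 2.64% with BTYNB and 6.22% with the combination. Pvr for BTYNB against control had -0.19 in tumour and 0.54 in myeloid cells, a difference of -0.73, and 0.28 (-0.20 to 0.80) in the C1q-rich myeloid cells. In tumour cells the ratio of Pvr for the antibody was -0.09 with BTYNB and 0.41 without it, a difference of -0.50. Lgals9 for anti-PD-1 against control had -0.15 in tumour and 0.36 in myeloid cells, a difference of -0.51, but without the Cd24a-positive cells the tumour ratio was 0.04 (0.00 to 0.08) and the signs were no longer opposite. In combination against anti-PD-1 Lgals9 had 0.26 and -0.52, a difference of 0.78. In tumour cells the ratio of Lgals9 for the antibody was 0.13 with BTYNB and -0.15 without it, a difference of 0.28.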

How the results depend on the processing

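No paired analysis was possible because each group was 1 library, and for the same reason no replicate could be left out. The BTYNB library holds cells shallower than any in the other libraries, and values that move under a common floor of 5115 UMIs cannot be told apart from depth. Of 606 alternative values for single members, 518 lay within the counting interval, 550 kept their direction, 13 were at 0 or had a reported value of 0 and 43 took the opposite sign. Of these 43, 17 were in B cells, where Nectin2 went from 0.57 to -1.01 with stricter gates, Cd274 from -0.44 to 0.83 with the common floor and Pvr from 0.14 to -3.76 after subtracting free RNA. In tumour cells Lgals9 for the antibody over control went from -0.15 to 0.04 without Cd24a-positive cells. Among ratios past 1.5-fold with an interval clear of 0, 2 values took the opposite sign. The cause of the differences that follow was not tested. Cd274 in tumour cells kept its direction in 44 of 44 alternatives, within log2 ratios to control of 0.58 to 1.02 with BTYNB alone and 0.94 to 1.18 with the antibody alone, and within 0.16 to 0.61 for the combination over BTYNB and 0.02 to 0.25 over the antibody. The mean of per-cell CPM gave 1.02 for BTYNB against control and 0.16 for combination against BTYNB, and leaving out Cd24a-positive cells gave 1.18 for the antibody over control and 0.02 for the combination over the antibody. Cd86 in myeloid cells kept its direction in 36 of 36 alternatives. It was 0.85 for BTYNB against control with stricter gates, and -1.71, -0.27 and 2.38 for anti-PD-1 against control and the combination against BTYNB and against anti-PD-1 with the common floor, and -0.65 for combination against BTYNB with the per-cell mean. With the common floor the anti-PD-1 library kept 67 myeloid cells. The 2 values of opposite sign past 1.5-fold were those of Cd86 in B cells, combination against BTYNB, which went from -1.14 to 0.60 with the common floor and 0.14 after subtracting free RNA.

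The count of members past the fold is given with the share of all genes read that passed in brackets. In tumour cells for BTYNB against control it was 0 at 2-fold (0.976%), 0 with the common floor (6.75%) and 0 with stricter gates (6.67%). It was 2 with the per-cell mean (8.74%) and 2 with a pseudocount of 0.1 (9.58%). For anti-PD-1 against control it was 0 at 2-fold (3.055%). It was 1, Cd274, with the common floor (9.66%), after subtracting free RNA (8.66%), with stricter gates (9.54%), without doublets (8.94%) and without Cd24a-positive cells (5.77%). It was also 1, Cd274, in cells with no leukocyte UMI (8.86%), an alternative chosen after seeing the data. For combination against BTYNB it was 1 with the common floor (0.751%), the per-cell mean (1.09%) and stricter gates (0.617%). With the per-cell mean that member was Cd86, which was lower, while Cd274 was at 0.16. Against anti-PD-1 it was 0 at 2-fold (3.028%), 0 without Cd24a-positive cells (5.14%), 2 with the per-cell mean (8.89%) and 2 with a pseudocount of 0.1 (13%). In myeloid cells for BTYNB against control it was 2 at 2-fold (9.96%), 1 with the common floor (23.9%) and 1 with stricter gates (23.8%). For the antibody over control it was 1 at 2-fold (1.684%) and 1 with the common floor (17.9%). For combination against BTYNB it was 0 at 2-fold (3.019%), 1 with the common floor (7.62%) and 4 with the per-cell mean (15.8%). Against anti-PD-1 it was 5 at a minimum of 20 UMIs (24.26%), 5 with the common floor (34.5%) and 6 after subtracting free RNA (20.1%). All of these counts are too small to read against the shares of all genes. Without thinning, the share of cells with a Cd274 UMI was 7.45%, 14.1%, 11.0% and 17.1% in tumour cells, and with a Cd86 UMI 36.6%, 51.0%, 18.0% and 53.6% in myeloid cells. The limit on keratins in B and mature dendritic cells was also chosen after seeing the data.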

Other observations

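Over the 12 combinations of gate and library with at least 50 cells, the genes whose log2 level was most like that of Cd274 were Epsti1 (r = 0.985), Samsn1 (0.985), Gbp5 (0.984), Cd1d1 (0.981) and Cyria (0.980) among 13857 genes. For Cd86 they were Ago4 (r = 0.995), Plcl2 (0.991), Tagap (0.990), Wipf1 (0.989) and Dock8 (0.989). These are descriptions across 12 points that share libraries, depth and cell types. In the BTYNB library, Ly6c2-positive myeloid cells held 100.2 CPM of Cd274, 194 CPM of Cd86, 101 CPM of Cd80 and 240.4 CPM of Vsir.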
